A study of Mus musculus with 6 samples.

Results

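The Hox genes measured in this series were 37 of 19938 genes on 6 Affymetrix arrays of keratinocytes, which build the epidermis, taken from mouse skin and treated with calcium. They were taken by name: every platform symbol made of Hoxa, Hoxb, Hoxc or Hoxd and a number, in probe sets that carry that symbol alone. Of them 10 belong to the Hoxa cluster and 9 each to Hoxb, Hoxc and Hoxd, and each has 1 probe set. Hoxb8 shares its probe set with Hoxb7, and that probe set read 9.09 and 8.71 in control, 9.15 and 9.20 in Ovol1 KO, and 9.42 and 8.92 in DKO on the log2 scale explained further on.

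Hox genes encode homeodomain transcription factors that give cells a position along the body axis. They lie in 4 clusters, and genes of like number in different clusters, the paralogue groups, descend from a common ancestor gene. Low-numbered genes are typically active from the hindbrain and neck backwards and high-numbered genes towards the tail, the limbs and the genital region. In skin, fibroblasts of different body sites keep different Hox patterns, and Hox genes are also active in epidermis and hair follicles. Hox proteins bind DNA with Pbx and Meis partners, Polycomb proteins hold their clusters silent, and retinoic acid is a known inducer of low-numbered members.

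The study asked what keratinocytes express during calcium-induced differentiation when they lack the zinc finger factors Ovol1 or both Ovol1 and Ovol2. Cells came from skin of C57BL/6 embryos at E18.5, labelled female, with 2 mice pooled per array and 2 arrays per group. They were grown for 2 to 5 days, given calcium and grown for 3 to 5 days more. All animals of the control group carried Ovol2flox/+, joined either to Ovol1+/- or to K14-Cre, so that controls could lack a copy of Ovol1 or, in K14-Cre cells, of Ovol2, and which array held which is not stated. The Ovol1 KO group was Ovol1-/-. The DKO group was Ovol1-/- and Ovol2flox/- with K14-Cre, whose promoter is active in basal keratinocytes, so that the remaining Ovol2 copy is deleted only in cells of that lineage.

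Values are log2(intensity + 16) after quantile normalization. Ovol1 read 10.27 and 9.85 in the 2 controls, 10.53 and 10.22 in Ovol1 KO 1 and 2, and 10.58 and 10.59 in the DKO arrays. Ovol2 read 8.12 and 8.82, 9.0 and 8.99, and 8.71 and 8.32 in the same order. Neither was lower in the DKO arrays than in the controls, and the labels do not say whether the probe sets lie in the deleted parts, so these values check no label. Xist, the RNA of the inactive X chromosome, was low in both controls (4.71 and 4.65) and in Ovol1 KO 1 (4.59) and high in Ovol1 KO 2 (11.97) and both DKO arrays (12.12 and 12.26), although every array is labelled female. The Y-linked gene Kdm5d read 14.70 on the first 3 of these arrays and between 7.50 and 7.64 on the others. Both controls thus carried the Y-linked signal and neither DKO array did, while Ovol1 KO 1 matched the controls and Ovol1 KO 2 the DKO arrays. All 18 keratinocyte markers examined were above the dim end of the scale on all 6 arrays.

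The sequences of 3 members whose values are described below are shown as context. They are the 250 bases before the annotated start in RefSeq's GRCm38.p6 tables, 5′ to 3′ on the gene's strand, with each CG dinucleotide in capitals because CG-rich starts are typical of genes under Polycomb control. Of the 37 members 21 had an entry, with 23 windows.

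Hoxa5, chr6:52204588-52204837, - strand: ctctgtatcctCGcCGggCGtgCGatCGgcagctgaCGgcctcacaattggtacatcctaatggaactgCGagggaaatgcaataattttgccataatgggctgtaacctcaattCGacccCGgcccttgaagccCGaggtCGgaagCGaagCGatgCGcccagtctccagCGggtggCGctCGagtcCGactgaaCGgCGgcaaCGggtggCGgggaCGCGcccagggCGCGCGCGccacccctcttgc

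Hoxa7, chr6:52218574-52218823, - strand: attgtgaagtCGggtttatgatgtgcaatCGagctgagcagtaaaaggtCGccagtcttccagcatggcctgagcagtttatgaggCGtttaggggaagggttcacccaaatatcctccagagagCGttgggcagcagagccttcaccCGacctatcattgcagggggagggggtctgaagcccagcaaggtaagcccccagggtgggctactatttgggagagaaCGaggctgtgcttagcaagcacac

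Hoxd8, chr2:74704365-74704614, + strand: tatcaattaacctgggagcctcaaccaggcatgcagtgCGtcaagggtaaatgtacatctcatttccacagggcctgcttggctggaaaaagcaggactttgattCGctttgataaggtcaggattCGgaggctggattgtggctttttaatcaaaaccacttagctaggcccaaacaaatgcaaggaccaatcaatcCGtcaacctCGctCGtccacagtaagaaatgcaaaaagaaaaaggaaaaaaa

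The window of Hoxa5 holds 28 CG dinucleotides, more than 92.4% of the 32851 promoter windows of the same length hold. That of Hoxa7 holds 7 and that of Hoxd8 holds 6, and the median over all windows is 6 and over the Hox windows 13. The letters CCGTTA, the core bound by Ovol proteins, were searched on both strands and are in 0 of the 23 Hox windows and in 2.18% of all windows. CACCTG, an E-box that Zeb repressors bind, is also in 0 of 23, against 17.2% of all. TAATTA, a homeodomain core that reads the same on both strands, is in 2 Hox windows, both of Hoxd11, and in 4.84% of all windows. These counts describe the letters of short windows only.

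The arrays carry no detection call, so the dim end was set by genes of the nose. On each array the limit was the 95th percentile of 1190 olfactory and vomeronasal receptor genes, which lay between 7.24 and 7.63. Of the 37 Hox genes 22 were over the limit on all 6 arrays, 6 on some and 9 on none, against 56.5% of all genes and 3.53% of the receptor genes over it on all 6. The limit is a loose one: Kdm5d read 7.50, 7.53 and 7.64 on the 3 arrays with high Xist, where the limit was 7.36, 7.37 and 7.63. The members just inside it were Hoxa13, at 0.01 log2 units or more over the limit, Hoxb5 at 0.02 or more and Hoxb4 at 0.07 or more. Just outside were Hoxb6 and Hoxc9, whose lowest arrays stood at -0.11 and -0.19 relative to it. With the 99th percentile as the limit, 10 members stayed over it on all 6 arrays, namely Hoxa4, Hoxa5, Hoxa7, Hoxb2, Hoxb3, Hoxb9, Hoxc6, Hoxc8, Hoxd3 and Hoxd13.

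**Figure D1:**
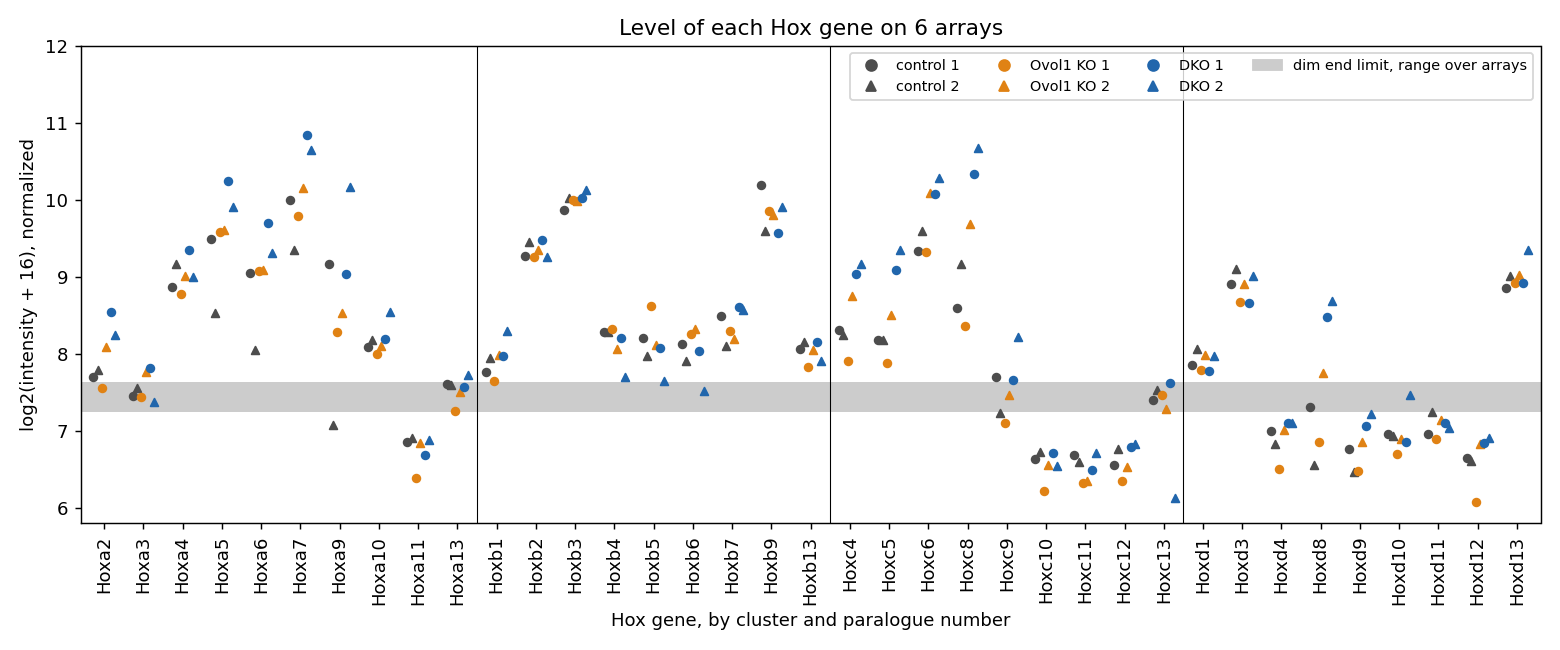
Level of each of the 37 Hox genes on each array, as normalized log2(intensity + 16), ordered by cluster and paralogue number. Grey, orange and blue points are the control, Ovol1 KO and DKO arrays, circles replicate 1 and triangles replicate 2, and the grey band spans the dim end limits of 7.24 to 7.63. Hoxc10 to Hoxc12 and Hoxd9 to Hoxd12 lie below the band on nearly every array, and Hoxa7, Hoxb3 and Hoxb9 lie near 10.

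By cluster, at this limit, Hoxb had 8 of 9 members over it on all 6 arrays and the other, Hoxb6, on 5. In Hoxa 7 of 10 were over it, in Hoxc 4 of 9 and in Hoxd 3 of 9. By position, 6 of 7 members of paralogue groups 1 to 3 and 11 of 14 of groups 4 to 8 were over it on all arrays, against 5 of 16 of groups 9 to 13. At the 99th percentile the clusters hardly differed, with 3 members of Hoxa, 3 of Hoxb, 2 of Hoxc and 2 of Hoxd over the limit. These counts compare each probe set with the same limit, and the brightness of different probe sets is not a measure of relative transcript number. No test of the difference between clusters was made.

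Hoxb2 and Hoxb3 varied little. Hoxb3, a low-numbered member, read 9.87 and 10.02 in control, 10.00 and 9.98 in Ovol1 KO, and 10.03 and 10.13 in DKO. Hoxb9 read 10.19 and 9.59, 9.85 and 9.81, and 9.57 and 9.91 in the same order. Both groups of knockout arrays overlapped the controls for Hoxb9. Hoxb2 kept within 0.22 log2 units over all 6 arrays and Hoxb3 within 0.25, whereas the spread was 3.09 for Hoxa9, 2.31 for Hoxc8 and 2.14 for Hoxd8.

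Among the other Hoxb genes, Hoxb1, which patterns the hindbrain, ranged from 7.65 to 8.30 over the 6 arrays. Hoxb5 ranged from 7.65 to 8.62, Hoxb7 from 8.10 to 8.61 and Hoxb13, a posterior gene also known from prostate, from 7.83 to 8.15. Hoxb4, known for its part in blood stem cells, read 8.29 on both controls, 8.32 and 8.07 in Ovol1 KO, and 8.21 and 7.70 in DKO. DKO 2 was the lowest array for Hoxb4, Hoxb5 and Hoxb6, and no array of these 3 genes exceeded 8.62.

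In Hoxc the level broke off in the middle of the cluster. Hoxc4, Hoxc5, Hoxc6 and Hoxc8 were over the limit on all 6 arrays, Hoxc9 on 4, and Hoxc10, Hoxc11 and Hoxc12 on none, with lowest and highest readings of 6.22 and 6.82 over these last 3 genes. Hoxc13, a regulator of hair and nail keratins, was over it on 4 arrays and read 7.62 and 6.13 in the DKO arrays, its lowest value being DKO 2. In Hoxd the dim members were Hoxd4 and Hoxd9 to Hoxd12, on 0 arrays each, between Hoxd1 and Hoxd3 on one side and Hoxd13 on the other, which were over the limit on all 6. Hoxd13, the gene at the posterior end, read 8.86 and 9.0 in control, 8.92 and 9.03 in Ovol1 KO, and 8.92 and 9.35 in DKO. Hoxd1 ranged from 7.78 to 8.06 and Hoxd3 from 8.66 to 9.11, narrow spans beside that of Hoxd8. In Hoxa, Hoxa11 was over the limit on no array, Hoxa13 barely over it on all 6, Hoxa3 and Hoxa9 on 5, and the other members, Hoxa2, Hoxa4 to Hoxa7 and Hoxa10, on all 6. Hoxa4 ranged from 8.78 to 9.34, Hoxa10 from 7.99 to 8.54 and Hoxa13, a gene of digits and the genital tract, from 7.26 to 7.72.

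**Figure D2:**
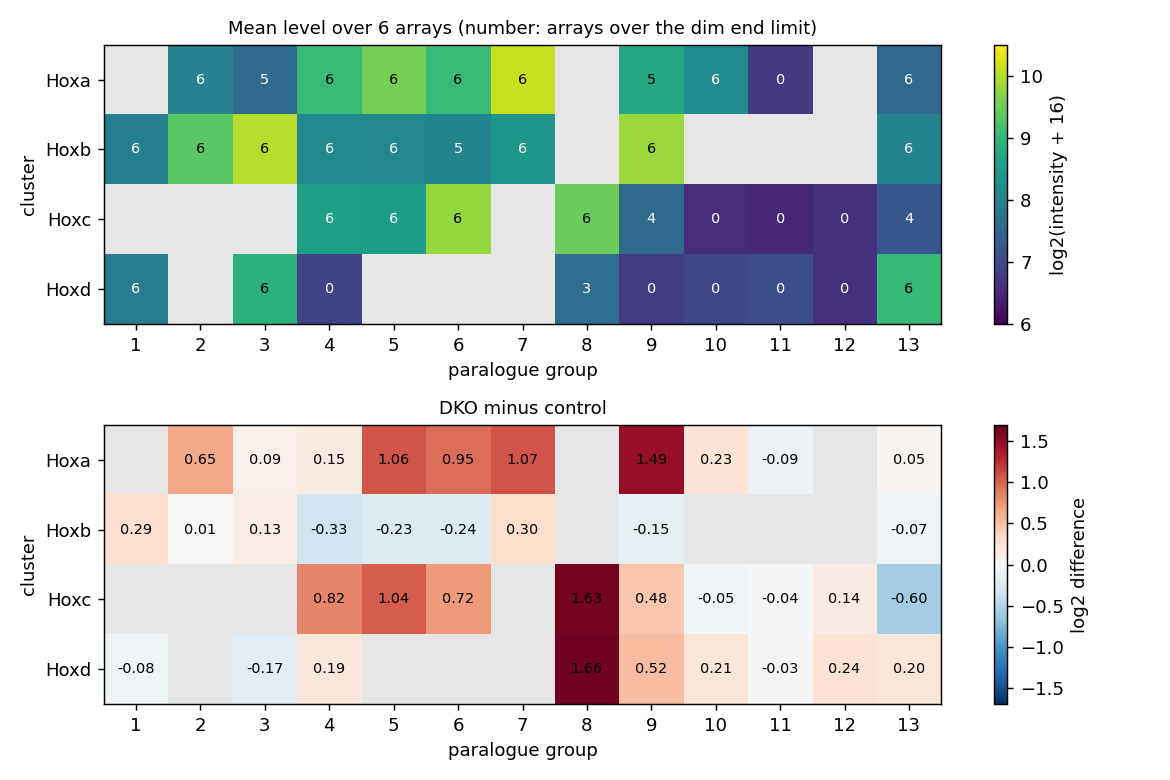
The clusters as rows and the paralogue groups 1 to 13 as columns, with grey where no gene was measured. The upper panel colours the mean level over the 6 arrays in log2(intensity + 16) and prints on how many arrays the gene was over the dim end limit. The lower panel colours and prints the log2 difference of DKO minus control, where the values of 0.72 or more lie in Hoxa5 to Hoxa9, Hoxc4 to Hoxc8 and Hoxd8, and Hoxb values lie between -0.33 and 0.30.

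DKO against control asked what the loss of both factors did. In this comparison Hoxa5 to Hoxa9, Hoxc4 to Hoxc8 and Hoxd8 had a higher mean in the DKO arrays, by 0.72 to 1.66 log2 units. For Hoxa9 the groups overlapped. Still, 0 of 37 Hox genes passed limma at an adjusted p under 0.05, where 3.2% of all genes did. With an unadjusted p under 0.05 there were 10 members higher, Hoxa2, Hoxa5, Hoxa6, Hoxa7, Hoxc4, Hoxc5, Hoxc6, Hoxc8, Hoxd8 and Hoxd9, against 5.96% of all genes, and 0 lower, against 8.53%. For 17 members (45.9%) both DKO arrays lay above both controls, against 23.1% of all genes, and for 1, Hoxb4, both lay below, against 21.5%. Of those 17 members, 12 were over the dim end limit on all 6 arrays. That is 12 of the 22 members over the limit, against 2957 of 11263 genes over it. The median difference was 0.19 over the Hox genes and 0.02 over all genes. By cluster the medians were 0.44 for Hoxa, -0.07 for Hoxb, 0.48 for Hoxc and 0.20 for Hoxd. By position the median was 0.77 in paralogue groups 4 to 8, where 10 of 14 members lay above both controls, and 0.09 in groups 1 to 3 and in groups 9 to 13. Within groups 4 to 8 it was 1.01 for Hoxa, -0.23 for Hoxb, 0.93 for Hoxc and 0.92 for Hoxd. To be called, a member needed a difference of 1.1 at the median, from 0.75 to 3.33 by its spread.

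Hoxa5, Hoxa6 and Hoxa7 are neighbours in the Hoxa cluster, and Hoxa5 and Hoxa7 are known from work on epithelial differentiation. Hoxa7 read 10.00 and 9.35 in control, 9.79 and 10.15 in Ovol1 KO, and 10.84 and 10.64 in DKO. Both DKO arrays were above all other arrays, and the Ovol1 KO arrays lay around the higher control. Its difference in DKO was 1.07 (SE 0.26, 95% interval 0.45 to 1.68, limma adjusted p = 0.095). Hoxa5 read 9.49 and 8.53 in control, 9.58 and 9.61 in Ovol1 KO, and 10.25 and 9.91 in DKO. Hoxa6 followed the same order of arrays, with 9.05 and 8.05, 9.07 and 9.09, and 9.70 and 9.31. For both genes control 2 was the lowest array by about 1 log2 unit, and the 2 DKO arrays the highest. The differences were 1.06 for Hoxa5 (SE 0.32, adjusted p = 0.17) and 0.95 for Hoxa6 (SE 0.34, adjusted p = 0.25).

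Hoxa2, which specifies the branchial arches, read 7.70 and 7.79 in control, 7.55 and 8.09 in Ovol1 KO, and 8.55 and 8.24 in DKO. The DKO arrays were again above the others, by a smaller margin, with a difference from control of 0.65 (SE 0.23, adjusted p = 0.26). In Hoxb the smallest p was that of Hoxb4, at -0.33 (SE 0.22, adjusted p = 0.60), which was -0.58 without DKO 1 and -0.08 without DKO 2.

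Hoxa9, named after its values were seen, lies next to Hoxa7 and is best known from blood stem cells and leukaemia. It varied most of all members, at 9.16 and 7.08 in control, 8.28 and 8.53 in Ovol1 KO and 9.04 and 10.17 in DKO. The 2 controls enclosed both Ovol1 KO arrays and DKO 1, and only DKO 2 was above them. The difference of 1.49 had an SE of 0.66 (adjusted p = 0.38). Control 2 decides much of these values. Without control 1, leaving control 2 alone, Hoxa5, Hoxa6, Hoxa7, Hoxa9 and Hoxd8 passed with differences of 1.55, 1.45, 1.39, 2.53 and 2.04, and without control 2 there were 5 members with an unadjusted p under 0.05 in place of 10. The difference of Hoxa9 was then 0.44, that of Hoxa5 0.58 and that of Hoxa6 0.45. In each of these fits the lone control is assumed to vary like the arrays of the other groups, so the spread between the controls does not enter.

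**Figure D3:**
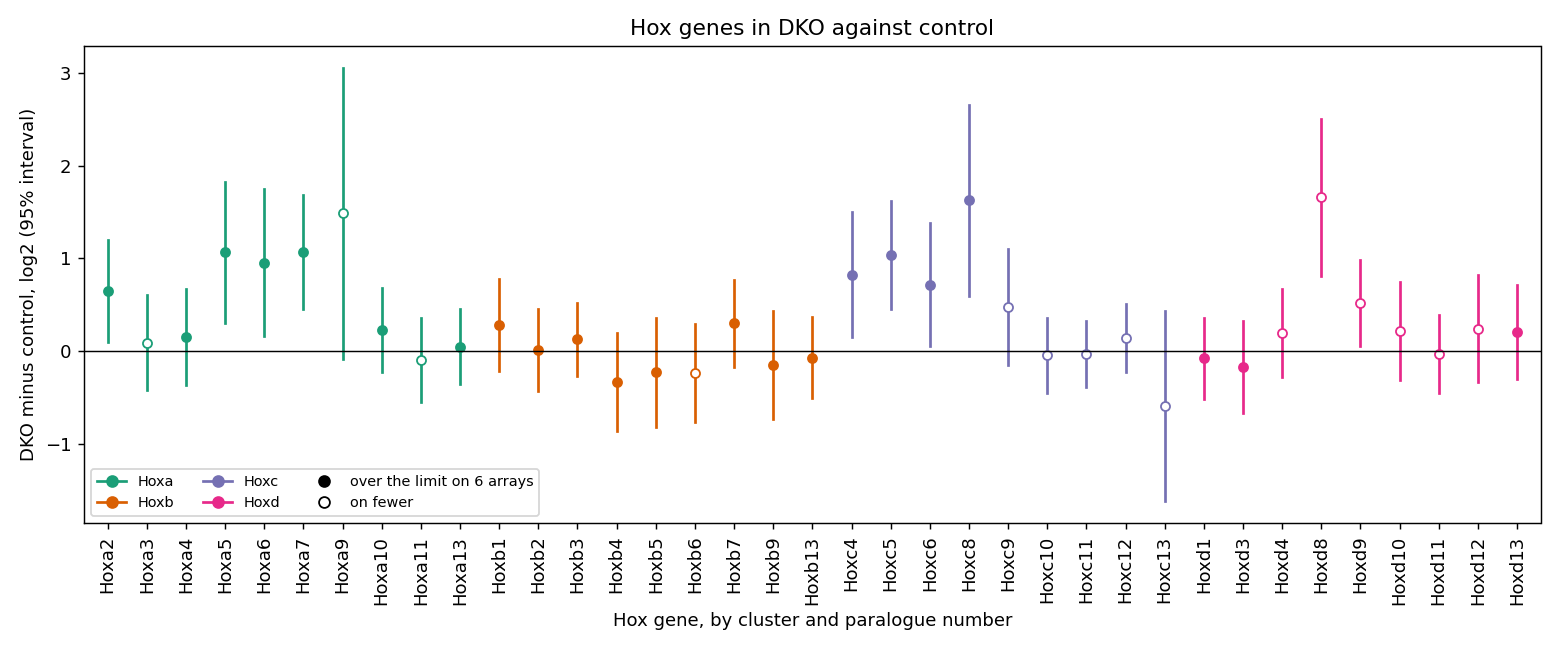
Difference between DKO and control for each Hox gene, in log2 units with its 95% interval from limma, coloured by cluster. Filled points are members over the dim end limit on all 6 arrays, and open points those over it on fewer. The intervals of 10 members lie wholly above 0, none lies wholly below, and no member passed after adjustment over 19938 genes.

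Of the neighbours Hoxc4, Hoxc5, Hoxc6 and Hoxc8, the last differed most. Hoxc8, a gene of thoracic identity, read 8.59 and 9.16 in control, 8.36 and 9.69 in Ovol1 KO, and 10.34 and 10.67 in DKO. Hoxc5 read 8.18 on both controls, 7.88 and 8.50 in Ovol1 KO, and 9.09 and 9.34 in DKO. In both genes the DKO arrays were above all others, and Ovol1 KO 2 came next. The differences from control were 1.63 for Hoxc8 (SE 0.43, 95% interval 0.60 to 2.65, adjusted p = 0.12) and 1.04 for Hoxc5 (SE 0.25, 95% interval 0.45 to 1.62, adjusted p = 0.089). Hoxc4 read 8.30 and 8.24 in control, 7.90 and 8.75 in Ovol1 KO, and 9.03 and 9.16 in DKO. Hoxc6 read 9.33 and 9.60 in control, 9.32 and 10.08 in Ovol1 KO, and 10.08 and 10.28 in DKO, where DKO 1 did not exceed Ovol1 KO 2. Their differences from control were 0.82 (SE 0.28, adjusted p = 0.24) and 0.72 (SE 0.28, adjusted p = 0.30).

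Hoxd8 had the smallest adjusted p of all members. It read 7.31 and 6.55 in control, 6.85 and 7.76 in Ovol1 KO, and 8.48 and 8.69 in DKO. The control arrays were under the dim end limit and the DKO arrays over it, with Ovol1 KO 2 over and Ovol1 KO 1 under. The difference was 1.66 (SE 0.36, 95% interval 0.81 to 2.51, adjusted p = 0.065), a 3.16-fold ratio on this scale, which understates changes of dim genes. Its neighbour Hoxd9 stayed under the limit on all arrays, at 6.77 and 6.47, 6.48 and 6.86, and 7.06 and 7.22. Hoxd8 passed without quantile normalization (adjusted p = 0.036), and Hoxc8 passed when only the 4 arrays compared were fitted (adjusted p = 0.049).

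The arrays with high Xist were the highest arrays for Hoxc4 to Hoxc8, and also for Hoxa2, Hoxa5, Hoxa6, Hoxa7, Hoxd8 and Hoxd9. These are all the members with an unadjusted p under 0.05 in DKO against control. Being selected for high DKO values, they have part of this order from the selection. The same order held for Hoxb1, Hoxd4 and Hoxd12, which did not reach that p. The share of all genes with this order was not computed. Ovol1 KO 2, which shares high Xist with the DKO arrays, was above Ovol1 KO 1 by 1.33 for Hoxc8, 0.91 for Hoxd8, 0.84 for Hoxc4, 0.77 for Hoxc6 and 0.62 for Hoxc5, but by 0.03 for Hoxa5, 0.02 for Hoxa6 and 0.36 for Hoxa7. Over all members 31 of 37 were higher in Ovol1 KO 2 than in Ovol1 KO 1, as were 68.2% of all genes. With Xist added to the model as a covariate, the DKO difference was 0.27 for Hoxc8, 0.40 for Hoxc5, 0.73 for Hoxd8 and 0.10 for Hoxa2, and turned to -0.04 for Hoxc4 and -0.06 for Hoxc6. It was 1.03 for Hoxa5, 0.93 for Hoxa6 and 0.70 for Hoxa7, with SEs of 0.62, 0.65 and 0.46. That fit left 0 members with an unadjusted p under 0.05, and over all genes 3 called higher and 5 called lower. Because Xist hardly varies within control or within DKO, it rests on the 2 Ovol1 KO arrays, which differ in other ways too, and the part of sex in these differences cannot be told apart from that of genotype.

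**Figure D4:**
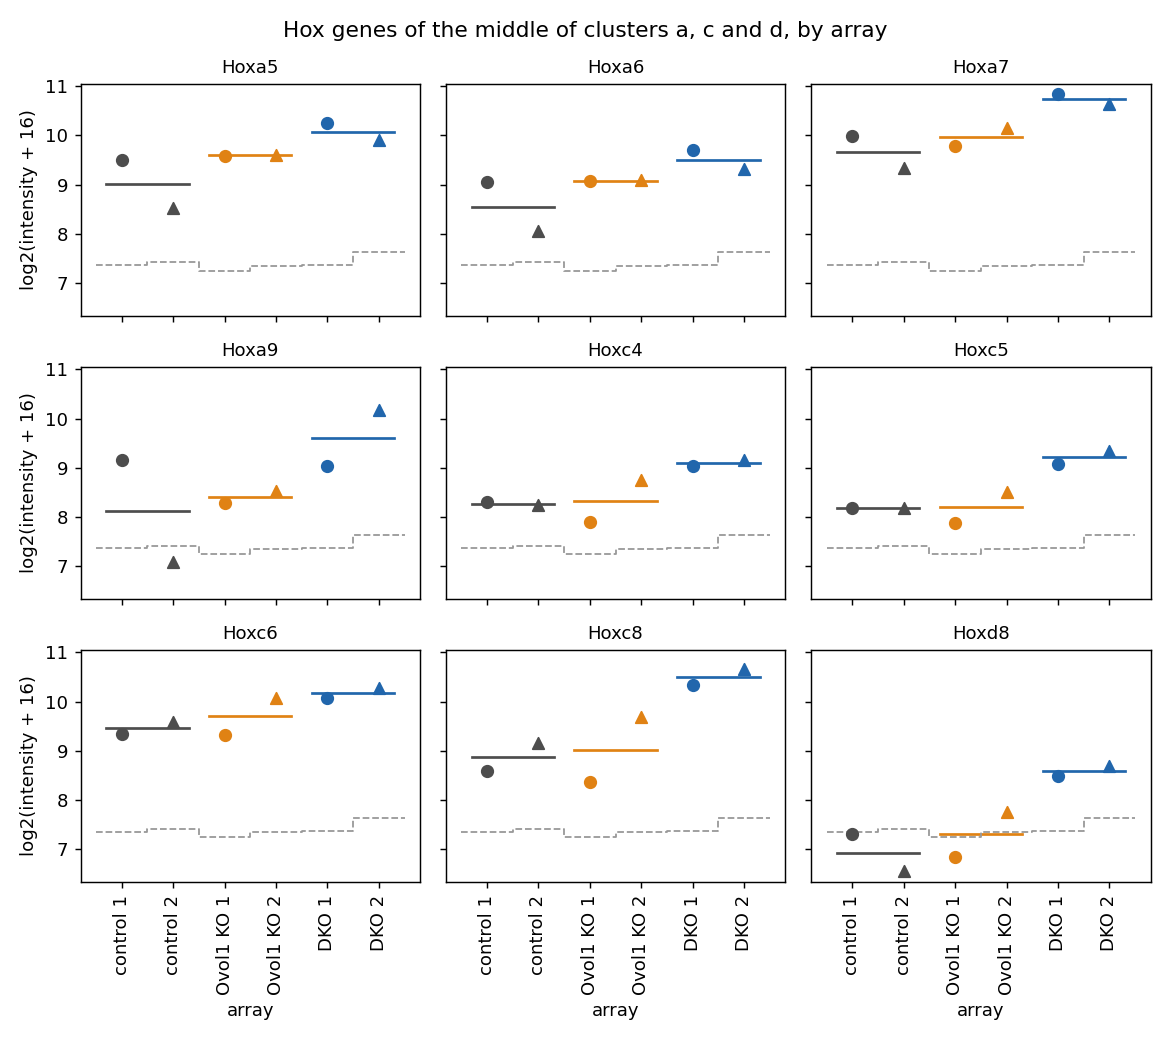
Normalized log2(intensity + 16) of Hoxa5, Hoxa6, Hoxa7, Hoxa9, Hoxc4, Hoxc5, Hoxc6, Hoxc8 and Hoxd8 on each array, with the group means as lines and the dim end limit dashed. Control 2 is low for Hoxa5, Hoxa6 and Hoxa9, and Ovol1 KO 2 is 0.62 to 1.33 above Ovol1 KO 1 for the Hoxc genes.

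Other cell types could carry Hox RNA, and in such cultures fewer cells of a type and less RNA per cell cannot be told apart. Of 19 fibroblast markers 8 were over the dim end limit on all 6 arrays. The summed intensity of the 19 was 5048 to 5673 in control, 4872 to 5514 in Ovol1 KO and 10160 to 10300 in DKO. The median difference of the list in DKO against control was only 0.12 log2 units, so the sum does not describe most of these markers. The 4 markers over the limit on no array were Lum, Dpt, Mfap5 and Fap. Col1a1 read 8.43 and 8.55 in control and 8.47 and 8.91 in DKO. Postn, a matrix gene, read 7.38 and 5.94 in control and 11.14 and 10.49 in DKO and was the 1 marker called higher (limma adjusted p = 0.007), while Pdgfra fell by 1.06 (adjusted p = 0.031). Thy1 read 9.86 and 8.12 in control and 10.96 and 11.23 in DKO, with no call. Of 12 melanocyte markers 3 were over the limit on all 6 arrays, and their sums were 1810 to 5767, 1883 to 7494 and 1535 to 2346 in control, Ovol1 KO and DKO. Over the limit on all arrays were 2 of 10 endothelial, 2 of 12 immune, 4 of 6 Schwann and neural, 5 of 8 muscle and 1 of 7 fat cell markers. The DKO sums lay below those of control for endothelial markers (1207 to 1292 against 1597 to 2647) and Schwann and neural markers (3815 to 4574 against 5229 to 5408), and above for keratinocyte markers (123400 to 153300 against 97370 to 101800) and fat cell markers (919.5 to 985.4 against 813.3 to 871.2). In DKO against control 4 of 18 keratinocyte markers were called higher and 1 lower, where 3.2% of all genes were called in either direction. The melanocyte list and the Schwann and neural list each had 1 marker called lower. Immune sums overlapped between all groups. Muscle sums overlapped between DKO (1938 to 3033) and control (2800 to 2998), while those of Ovol1 KO (2266 to 2631) lay below control. The part of these cells in the Hox values was not tested.

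Ovol1 KO against control asked what the loss of Ovol1 alone did, and it shares its control arrays with the comparison above. No Hox gene passed limma, as 0% of all genes did, and with an unadjusted p under 0.05 there were 0 members, against 0.216% of all genes higher and 0.597% lower. The median difference was -0.05 over the Hox genes and -0.06 over all genes. Both Ovol1 KO arrays lay above both controls for 3 members (8.11%, against 5.8% of all genes) and below for 8 (21.6%, against 18.3%), shares near the background. The members with the smallest p in each cluster were Hoxa5 with a difference of 0.58 (95% interval -0.18 to 1.35), Hoxb6 with 0.27, Hoxc11 with -0.31 and Hoxd3 with -0.22. The value of Hoxa5 was 1.06 without control 1 and 0.10 without control 2. That of Hoxb6 was 0.16 without control 2, and that of Hoxd3 was -0.12 without control 2, -0.11 without Ovol1 KO 1 and -0.33 without Ovol1 KO 2. The interval of Hoxc8, -0.88 to 1.18, leaves differences of up to about 2-fold in either direction undetected with 2 arrays a group.

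DKO against Ovol1 KO asked what the added loss of Ovol2 did, on the same DKO arrays as the first comparison. Again 0 of 37 members passed, where 2.15% of all genes did. With an unadjusted p under 0.05, 8 members were higher, Hoxa2, Hoxa7, Hoxc4, Hoxc5, Hoxc8, Hoxc9, Hoxd8 and Hoxd9, against 6.23% of all genes, and 0 lower, against 7.04%. Ovol1 KO 1 differed from the DKO arrays in Xist and Kdm5d as well as in genotype. With Xist as a covariate the 8 members became 1, and the differences of Hoxc8 and Hoxd8 were 0.77 and 0.80. Both DKO arrays lay above both Ovol1 KO arrays for 19 members (51.4%, against 26.1% of all genes) and below for 2, Hoxb5 and Hoxb6 (5.41%, against 16%). Of those 19 members, 11 were over the dim end limit on all 6 arrays. That is 11 of the 22 members over the limit, against 2951 of 11263 genes over it. The median difference was 0.32 over the Hox genes and 0.09 over all genes. Hoxc8 differed by 1.48 (SE 0.43, adjusted p = 0.19), Hoxd8 by 1.28 (SE 0.36, adjusted p = 0.16), Hoxc5 by 1.02 (SE 0.25, adjusted p = 0.11) and Hoxa7 by 0.77 (SE 0.26, adjusted p = 0.26). Without Ovol1 KO 1 the value of Hoxc8 was 0.81, and without Ovol1 KO 2 it was 2.14. Hoxd8 was at 0.83 without Ovol1 KO 1. In Hoxb the smallest p was that of Hoxb6, with -0.51 (SE 0.22, adjusted p = 0.40), which was -0.77 without DKO 1 and -0.25 without DKO 2.

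Among genes that act with or on Hox genes a few passed. Of 8 Pbx, Meis and Pknox cofactor genes measured 1 was called lower in DKO against control and 0 higher, where 3.2% of all genes were called in either direction. It was Meis3, which read 8.98 and 8.85 in control, 9.07 and 8.87 in Ovol1 KO, and 7.78 and 7.14 in DKO. It fell by 1.46 (SE 0.25, adjusted p = 0.031), and by 1.51 against Ovol1 KO (SE 0.25, adjusted p = 0.034). Its first call was lost without control 1 (-1.39), without DKO 2 (-1.14), without either Ovol1 KO array and with only the 4 arrays compared (-1.46 in each, adjusted p = 0.061 with the 4 arrays). The second was lost without DKO 2 or either Ovol1 KO array (-1.19 without DKO 2). Meis1 and Meis2 did not pass, with differences of -0.77 and 0.55 against control.

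Of 26 Polycomb genes 1 was called higher in DKO and 0 lower, in both comparisons with DKO, a share near the 3.2% of all genes called against control and the 2.15% called against Ovol1 KO. Jarid2, a subunit that recruits the methylating Polycomb complex, read 10.27 and 10.52 in control, 10.56 and 10.61 in Ovol1 KO, and 12.02 and 11.91 in DKO. The DKO arrays were above all others by over 1 log2 unit. It rose by 1.57 against control (SE 0.15, adjusted p = 0.0043) and by 1.38 against Ovol1 KO (SE 0.15, adjusted p = 0.0079), a call lost without Ovol1 KO 1 or either DKO array, with values from 1.33 to 1.43. The median of the list against control was 0.15, and the catalytic subunit gene Ezh2 differed by 0.33 (adjusted p = 0.57). Of 16 trithorax and related chromatin genes 0 passed in any comparison and 0 had an unadjusted p under 0.05, and of 9 upstream homeobox genes, such as Cdx1 and Cdx2, also 0 and 0.

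Of 14 retinoid genes 3 were called lower and 0 higher in both comparisons with DKO, beside the same 3.2% and 2.15% of all genes. They were Aldh1a3 and Rdh10, enzymes of retinoic acid synthesis, and Crabp1, which binds retinoic acid in the cell. Against control Aldh1a3 fell by 3.65 (SE 0.46, adjusted p = 0.011), Rdh10 fell by 3.29 (SE 0.52, adjusted p = 0.025) and Crabp1 fell by 2.20 (SE 0.26, adjusted p = 0.009). Aldh1a3 lost that call without DKO 2 (-3.26) and Rdh10 without DKO 1 or DKO 2 (-3.83 and -2.76) and with limma's robust setting. Against Ovol1 KO they differed by -3.61, -3.35 and -2.60 (adjusted p = 0.014, 0.029 and 0.0058 for Aldh1a3, Rdh10 and Crabp1). There Aldh1a3 lost its call without Ovol1 KO 1 or either DKO array (-3.99 to -3.12), and Rdh10 without any of the 4 arrays compared (-3.93 to -2.77) and with the robust setting. The receptor genes Rara and Rarg read higher in DKO by 0.74 and 0.52 and did not pass. With Xist in the model none of Meis3, Jarid2, Aldh1a3, Rdh10 and Crabp1 passed against control, with differences of -1.23, 1.52, -2.65, -2.10 and -2.71, and against Ovol1 KO Crabp1 alone passed (-2.87, adjusted p = 0.048).

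The clusters also hold microRNAs that target Hox messages. Their mature sequences from RefSeq, with bases 2 to 8, the seed that pairs with targets, in capitals, fall into 2 seed groups, each with members in different clusters.

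mmu-miR-10a-5p, chr11:96317186-96317208, + strand: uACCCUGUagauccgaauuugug

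mmu-miR-10b-5p, chr2:74726074-74726096, + strand: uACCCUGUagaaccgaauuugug

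mmu-miR-196a-5p, chr11:96265187-96265208, + strand: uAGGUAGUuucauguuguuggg

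mmu-miR-196b-5p, chr6:52230129-52230150, - strand: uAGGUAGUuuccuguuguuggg

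The probe sets of these genes were dim. Mir10a, beside Hoxb4, read between 4.75 and 5.13 and Mir10b, beside Hoxd4, between 4.21 and 4.50, under the limit on all arrays, as were Mir196b and Mir196a-2. Mir196a-1, beside Hoxb9, was over the limit on 3 arrays. Total RNA was labelled from random hexamers, and such probe sets need not follow the mature microRNA. Among the 8 non-coding genes of the clusters measured, Hottip, next to Hoxa13, was the only one over the limit on all 6 arrays, and 0 passed in any comparison. Of 11 protein-coding genes that flank the clusters 9 were over the limit on all 6 arrays and 0 passed. Skap2, which flanks the Hoxa cluster, had the smallest p, at 0.49 higher in DKO than in control (SE 0.19, adjusted p = 0.30).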

How the data were processed

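Expression was measured on 6 arrays in 3 groups of 2. The authors deposited linear-scale intensities, with a single value for each probe set on each array. Affymetrix Expression Console (1.1.1) and PLIER (2.0) are listed in the submitters' processing notes, with no role stated, and how the background was corrected or the arrays normalized is not given in the sources. Of 35556 probe sets, 21789 carried 1 gene symbol in GEO's platform annotation, 1621 several and 12146 none here. The first kind was used, as 19938 genes, with the brightest probe set per gene. Array medians ran from 174.2 to 203.6.

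Intensities were offset by 16, log2-transformed and quantile-normalized, since quartiles differed between arrays by up to 0.218. limma 3.58.1 in R 4.3.3 fitted 1 mean per group over all 6 arrays with a variance trend and 3 residual degrees of freedom, with Benjamini-Hochberg adjustment over all genes. The offset understates changes of dim genes. The procedure was tested on simulated data, and promoter and microRNA sequences came from RefSeq tables of GRCm38.p6. The small number of arrays limits the precision. The labels call the arrays biological replicates. Members, gene lists and the naming rule (called members, members over the dim end limit, and the smallest p per cluster) were chosen with earlier results of these data known. Hoxa9 and the counts with an unadjusted p or without overlap were added after the values were seen.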

Additional observations from a re-analysis of the deposited data

How the results depend on the processing

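Each choice was changed alone. Among Hox genes, 0 called higher in DKO against control became 1 with the values as deposited (Hoxd8), 2 with the replicate block (Hoxc5 and Hoxc8), 1 with only the 4 arrays compared (Hoxc8), and from 0 to 5 with single arrays left out. The 5 arose without control 1, and the fits without Ovol1 KO 1 or Ovol1 KO 2 each called Hoxc8. The count lower became 1, Hoxc13, without DKO 1, and was 0 otherwise. Against Ovol1 KO, the replicate block called 1 member higher (Hoxc8). Offsets of 1 and 64, leaving out the dimmest 30% of genes, no variance trend, the robust setting and the mean over probe sets called 0 members. Ovol1 KO against control had 0 under every setting. The replicate numbers are shared between groups, but the labels do not tie a number to a litter or day, so the main fit has no block. Deviations of same-numbered arrays correlated at 0.687 between control and Ovol1 KO, 0.151 between control and DKO and 0.0874 between Ovol1 KO and DKO. Whether arrays of the same number share an effect was not tested. The 10 members with an unadjusted p under 0.05 in DKO against control became 0 with Xist as a covariate and from 5 to 10 with single arrays left out. In that Xist fit Hoxc4 (-0.0352) and Hoxc6 (-0.0639) changed sign. No other sign change occurred among the members followed singly over the settings. Those were the members with the smallest p per cluster or an unadjusted p under 0.05, and Hoxa9. The other members were not followed singly. The median over all Hox genes was -0.0639 in that fit and 0.1901 in the main fit, so other members changed sign too. Over all genes the median moved as well, from 0.0237 in the main fit to -0.123 in the Xist fit. The count over the dim end limit was 22, and 10 with the 99th percentile as the limit, where the stricter limit itself lowers it. It ran from 22 to 26 in the other settings. The 17 members without overlap were 14 with the values as deposited. Why single arrays move the calls was not tested. With 2 arrays a group, differences under about 2-fold were mostly not callable.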
